A study of Bos taurus with 8 samples.

Results

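Genes for mitochondrial ribosomal proteins were followed across 8 microarrays of cultured bovine retinal glia. The members were all genes whose name on the array was MRPL or MRPS followed by a number, with or without a letter A, B or C, which gave 75 of the 17921 gene names on the array. By name, 46 belong to the large subunit and 29 to the small subunit. Each gene was read from its brightest probe, as the log2 signal minus the 75th percentile of its own array, so a level of 0 is the 75th percentile. All 75 members passed the filter on dim probes, and all 75 stood well above background on all 8 arrays, as did 11179 of the 12271 genes tested.

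The cells were given as primary bovine Müller glia that had been 18 to 21 days in culture, and 3 groups were compared after 24 h. TAT, the HIV-1 transcription activator, was given at 100 ng/ml in 3 samples (letters A, B and C). The HIV-1 envelope protein gp120 was given at 60 ng/ml in another 3 (A, B and C), and 2 controls (A and B) received neither protein. The comparisons ask what each viral protein does to these cells and whether the 2 proteins differ. The labels do not say whether a letter stands for an animal, a culture or a day, so the p-values speak only to the spread among these samples, which may be technical. The treatment text of every sample, controls included, names both proteins, and the groups follow the sample titles.

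Of 10 Müller glia markers on the array, 7 stood well above background on all 8 arrays, among them GLUL and SLC1A3, whereas RLBP1 and GFAP did so on 2 arrays and KCNJ10 on 1. Markers of other cells were also present on all 8 arrays, namely 7 of 8 for microglia and macrophages, 6 of 7 for fibroblasts, 5 of 5 for pericytes and smooth muscle, 3 of 4 for endothelium, 2 of 5 for pigment epithelium and 1 of 6 for retinal neurons. The extraction text speaks of astrocytes. On the slide, row 2 carried letters B and C of both proteins, and row 1 carried all of letter A together with control B. The detector voltage was 471 in scan 1, which read the B and C arrays of gp120, and 431 in scan 2, which read the remaining 6.

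Mitochondria carry their own ribosome, which translates the few proteins still encoded in mitochondrial DNA, all of them subunits of oxidative phosphorylation. Its RNAs come from the mitochondrial genome, but every one of its proteins is encoded in the nucleus, made in the cytosol and imported. Many have counterparts in bacterial ribosomes, and others are found only in mitochondria. The large subunit joins amino acids at the peptidyl transferase centre, and the small subunit reads the messenger RNA at the decoding centre. The names do not always give the place, since MRPS30 and MRPS18A are now placed in the mammalian large subunit, and MRPS36 is now known as a component of the oxoglutarate dehydrogenase complex.

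The members were steadier than most genes. Over the 8 arrays the distance between a member's highest and lowest level had a median of 0.621 on the log2 scale, from 0.231 to 2.08, and it exceeded 1 for 15 members (20%). Over all genes tested the median was 0.963 and 47.3% exceeded 1. The genes were not matched for level, and 11179 of the 12271 stood well above background on all 8 arrays, as all members did. The medians of the large and small subunit genes were 0.603 and 0.662. The widest span was that of MRPL15, and it followed the replicate letters rather than the viral proteins, as the heat map of all members shows.

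**Figure D1:**
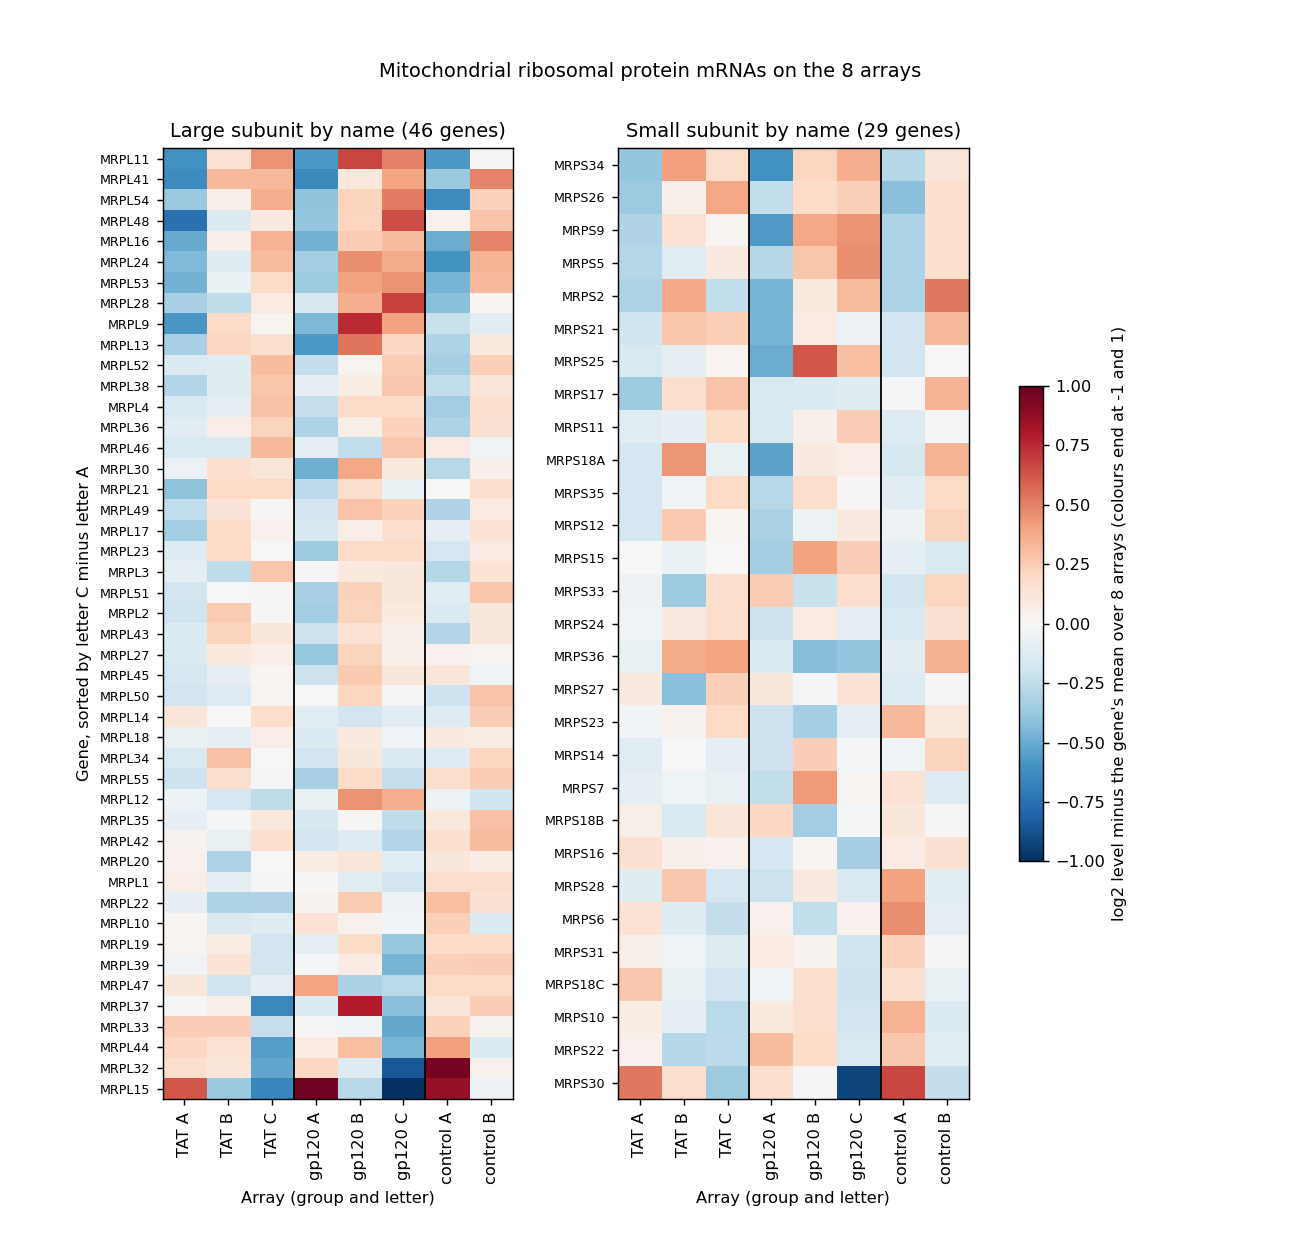
Heat map of the 75 members (rows, large subunit left, small subunit right, sorted by letter C minus letter A) on the 8 arrays (columns). Colour is the log2 level minus the gene's mean over the 8 arrays. In both panels the letter A columns of TAT, gp120 and control differ from the letter B and C columns. Most genes at the top are low and most at the bottom high in letter A, which the sorting itself sets for letter C against letter A.

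No member passed the threshold for TAT (limma, Benjamini-Hochberg adjusted p of 0.05 over 12271 genes). That was true of all genes on the array, with 0 called (0%) and 159 (1.30%) at an unadjusted p under 0.05, of which 0 were members. The fitted difference of TAT minus control was above 0 for 27 members and below 0 for 48. Its median was -0.044 on the log2 scale, against -0.029 over all genes, of which 45.4% lay above 0. Large and small subunit genes had medians of -0.047 and -0.043. The median 95% confidence interval of a member reached 0.581 to either side of its difference, so most changes smaller than that were not detectable in this fit. That interval is not adjusted for the number of genes, and the adjusted threshold asks for larger differences. With the letters as a replicate block the median reach was 0.450. In that fit 539 of 12271 genes, 1 of them a member, had an unadjusted limma p under 0.05, and 0 were called. In bulk RNA, fewer cells of one type and less RNA per cell cannot be told apart.

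The lowest differences belonged to MRPL32 (-0.58), MRPL15 (-0.54), MRPL22 (-0.46) and MRPL48 (-0.43), and the highest to MRPL11 (0.29), MRPL54 (0.21), MRPL30 (0.19) and MRPL43 (0.15). No control carries letter C, so these differences also hold that of letter C from the other letters. In same-letter pairs A and B, TAT minus control was -0.801 and 0.078 for MRPL32. It was -0.036 and 0.154 for MRPL11 and 0.256 and -0.173 for MRPL54. MRPL15, MRPL22, MRPL48, MRPL30 and MRPL43 kept their sign in both pairs. These values hold for the brightest probe. At the other probe TAT minus control was -0.295 for MRPL30 and -0.373 for MRPL54, and 3 of the 4 MRPL43 probes were below 0. The probes of MRPL11, MRPL15 and MRPL48 agreed in sign. MRPL22, whose bacterial counterpart lines the tunnel through which the new chain leaves, had levels of 3.31, 3.08 and 3.09 in TAT samples A, B and C, against 3.69 and 3.54 in controls A and B. All 3 TAT arrays lay below both controls. The fitted difference was -0.46 (SE 0.20, n = 3 and 2), with an unadjusted limma p of 0.054 and an adjusted p of 0.9995. TAT and control arrays were fully apart for 10 members, of which 9 were lower with TAT (9.14% of all genes) and 1 was higher (4.89% of all genes). The 9 lower ones were all large subunit genes, MRPL1, MRPL18, MRPL19, MRPL20, MRPL22, MRPL37, MRPL39, MRPL47 and MRPL55, and the higher one was MRPS15 (0.10).

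No member passed for gp120 either (same limma test). Over all genes 0 were called (0%) and 325 (2.65%) had an unadjusted p under 0.05, of which 0 were members. With the letters as a replicate block, 688 of 12271 genes had one (limma), of which 2 were members, and 0 were called. The difference of gp120 minus control was above 0 for 34 members and below 0 for 41, with a median of -0.069 against -0.011 over all genes, of which 48.5% lay above 0. The medians were -0.002 for large subunit genes (23 above and 23 below 0) and -0.080 for small subunit genes (11 above and 18 below 0). The sign of these medians rested on single arrays. For gp120 the median over members was 0.049 without control B and 0.025 without gp120 A, and leaving out TAT A or control B turned the TAT median to 0.041 or 0.070.

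The lowest differences with gp120 were those of MRPL32 (-0.76), MRPL15 (-0.55), MRPS30 (-0.47) and MRPL42 (-0.44), and the highest those of MRPL28 (0.49), MRPL11 (0.49), MRPL9 (0.40) and MRPL12 (0.38). These differences too hold that of letter C, which no control carries. In same-letter pairs A and B, gp120 minus control was 0.101 and -0.228 for MRPL15 and -0.497 and 0.218 for MRPS30. MRPL11, MRPL9 and MRPL12 also changed sign between the pairs, and MRPL32, MRPL42 and MRPL28 did not. MRPL42 had levels of 2.52, 2.57 and 2.42 in gp120 samples A, B and C, against 2.87 and 3.02 in controls A and B. The groups did not overlap, and the difference was -0.44 (SE 0.19, n = 3 and 2, limma unadjusted p 0.0503, adjusted p 0.999). MRPS23, a small subunit protein found only in mitochondria, had levels of 2.70, 2.57 and 2.81 with gp120, against 3.23 and 3.01 in controls. Its difference was -0.43 (SE 0.20) and its adjusted limma p was 0.999. In all, 9 members lay below both controls on all 3 gp120 arrays (7.51% of all genes) and 1, MRPS27, lay above them (5.53% of all genes). The 9 were MRPL1, MRPL33, MRPL35, MRPL39, MRPL42, MRPS16, MRPS17, MRPS23 and MRPS36. The TAT and gp120 comparisons use the same 2 control arrays, so a gene low in both, such as MRPL39 (-0.27 with TAT and -0.37 with gp120), is not seen independently in each.

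The 2 viral proteins were also set against each other, and 0 of 12271 genes passed (0%), with 310 (2.53%) at an unadjusted p under 0.05. TAT minus gp120 was above 0 for 37 members and below 0 for 38, with a median of -0.012 against -0.020 over all genes. That median was 0.050, 0.043 and 0.032 without TAT A, gp120 B and gp120 C. MRPS36 was the 1 member with an unadjusted p under 0.05 in this fit. With the letters as a replicate block, 942 of 12271 genes had one (limma), of which 3 were members. For MRPS36 the levels and the fit without a block follow. Its levels were 2.20, 2.64 and 2.66 in TAT samples A, B and C and 2.13, 1.84 and 1.88 in gp120 samples, beside 2.16 and 2.62 in controls A and B. The 3 letter A arrays were close together, and the gap was between letters B and C with TAT and the same letters with gp120. The difference was 0.55 (SE 0.22, n = 3 each, unadjusted limma p 0.0398, adjusted p 0.9999).

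MRPL12, whose bacterial counterpart forms the flexible stalk that recruits translation factors, showed the same array structure in the other direction. Its levels were 0.36, 0.24 and 0.16 with TAT and 0.34, 0.86 and 0.78 with gp120, beside 0.36 and 0.21 in controls. Only gp120 B and gp120 C were high, and these are the 2 arrays of scan 1, so gp120 and the scan cannot be told apart in these 2 arrays. Letters B and C of TAT and letter B of the controls were not high. TAT minus gp120 was -0.41 (SE 0.20, adjusted limma p 0.9999), and with a scan term, which sets only gp120 A against TAT, it was -0.09. For MRPS36 the value with the scan term was 0.37. That value sets gp120 A against the TAT arrays of all 3 letters, and in pair A TAT minus gp120 was 0.072. The low gp120 levels of MRPS36 were also those of gp120 B and gp120 C, so gp120 and the scan cannot be told apart there. Members whose arrays did not overlap numbered 5 higher with TAT (MRPL14, MRPL42, MRPS16, MRPS23 and MRPS36, beside 3.06% of all genes) and 1 lower (MRPL22, beside 3.61%). The other ends of the range were MRPL28 (-0.46), MRPL48 (-0.42), MRPL9 (-0.35), MRPS30 (0.38) and MRPL33 (0.26).

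**Figure D2:**
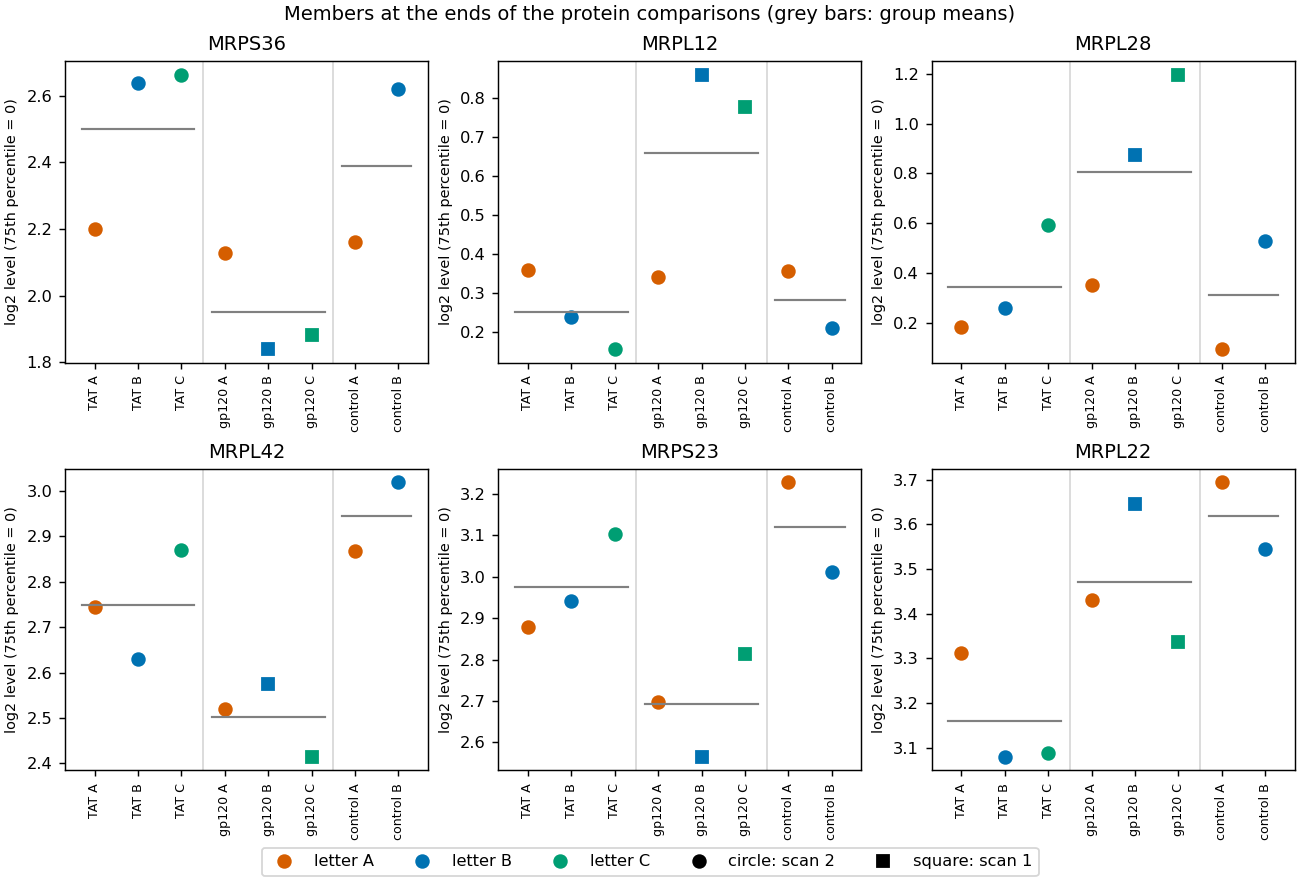
Levels of 6 members on each array (y axis, log2, 75th percentile of the array at 0), with TAT left, gp120 in the middle and control right, and grey bars for group means. Colours give the letter and squares mark the 2 arrays of scan 1. MRPS36 is low and MRPL12 high on the squares, and MRPL42 and MRPS23 lie lower on all 3 gp120 arrays than on both controls.

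Pairs of arrays with the same letter gave small and mixed shifts. For TAT minus control the median over members was -0.055 in pair A and -0.097 in pair B, and 9 members were higher and 30 lower in both pairs, beside 19.0% and 31.3% of all genes. For gp120 minus control it was -0.171 in pair A and 0.005 in pair B, with 10 members higher and 25 lower in both, beside 20.4% and 26.7%. For TAT minus gp120 it was 0.072, -0.137 and 0.011 in pairs A, B and C, with 12 members higher and 11 lower in all 3, beside 13.5% and 18.7%. The median changed sign between letters in the last 2 comparisons. Small subunit genes had a median of -0.203 in pair A and 0.020 in pair B for gp120 minus control, against -0.029 over all genes in each. Of the 29, 21 were higher with TAT than with gp120 in pair A, 14 in pair B and 14 in pair C. Of all 12271 genes, 5813, 5854 and 5642 were higher in pairs A, B and C.

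The clearest differences among the members were between replicate letters. With the groups fitted beside the letters, 6 members differed between letters B and A and 9 between letters C and A at an adjusted p under 0.05. Those are 8% and 12% of the members, beside 14.6% and 16.0% of all genes called in these comparisons. Which share was higher depended on the processing, since normexp background correction called 19 and 16 members (25.3% and 21.3%), beside 18.8% and 18.2% of all genes. Of the 6 members called for letter B minus letter A, 5 were higher in B (7.75% of all genes) and 1 was lower (6.82%). Of the 9 called for letter C minus letter A, 6 were higher in C (8.45% of all genes) and 3 were lower (7.55%). At an unadjusted p under 0.05 there were 24 members (32%) in each, beside 32.0% and 34.0% of all genes. The B and C comparisons share the letter A arrays.

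The direction over the whole group was less even than over all genes. Letter B minus letter A was above 0 for 55 members and below 0 for 20, with a median of 0.252, against a median of -0.010 over all genes, of which 49.0% lay above 0. Letter C minus letter A was above 0 for 54 and below 0 for 21, with a median of 0.227, against 0.035 over all genes, of which 52.7% lay above 0. Within groups, the median of B minus A was 0.092 with TAT, 0.309 with gp120 and 0.230 in controls, and that of C minus A was 0.186 with TAT and 0.259 with gp120. Higher in B than in A within every group were 43 members and lower were 11, beside 25.5% and 25.7% of all genes. For C minus A, within TAT and within gp120, 47 were higher and 19 lower, beside 41.4% and 34.9%. Read over all arrays of a letter at once, 33 members lay higher and 5 lower in B than in A without overlap (19.2% and 18.5% of all genes), and 37 higher and 17 lower in C than in A (30.3% and 26.7%). Letters C and B differed in 0 members (0 called, 6 at an unadjusted p under 0.05, limma), beside 1.45% and 16.2% of all genes, with a median of -0.028. Between these letters 8 members lay higher and 18 lower in C without overlap, beside 19.7% and 15.5%.

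**Figure D3:**
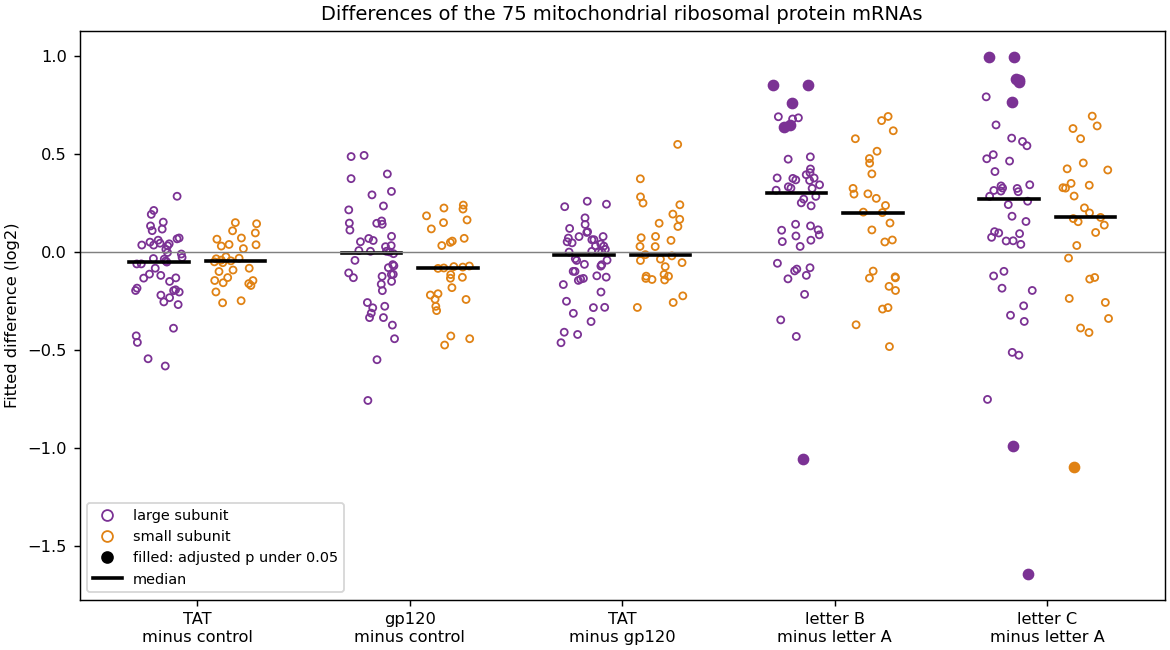
Fitted differences (y axis, log2) of the 75 members in 5 comparisons (x axis), with large subunit genes in purple, small subunit genes in orange, medians as black bars and members past an adjusted p of 0.05 as filled points. No point is filled in the 3 protein comparisons. The letter comparisons have 6 and 9 filled points and medians above 0 in both subunits.

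MRPL15, a core protein of the large subunit with a bacterial counterpart, fell in letters B and C. Its levels were 2.08 in TAT B, 2.16 in gp120 B and 2.39 in control B, and 1.80 in TAT C and 1.34 in gp120 C, against 3.06, 3.42 and 3.32 in TAT A, gp120 A and control A. All 5 arrays of letters B and C lay below the 3 of letter A. The difference was -1.05 (SE 0.20, adjusted limma p 0.0210) for B minus A and -1.64 (SE 0.23, adjusted limma p 0.00879) for C minus A, which is 0.321 times the letter A signal.

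MRPL32, which the mitochondrial m-AAA protease cuts to its mature form in yeast and mouse, fell in letter C. It had levels of -0.08 in TAT C and -0.41 in gp120 C, against 0.59, 0.64 and 1.39 in TAT A, gp120 A and control A. The difference was -0.99 (SE 0.24, adjusted limma p 0.0408), and letter B minus letter A was -0.43 (SE 0.20, adjusted p 0.209). MRPS30 had levels of -0.16 and -0.73 in TAT C and gp120 C, against 0.72, 0.36 and 0.86 in the letter A arrays. It fell by 1.096 in letter C (SE 0.22, adjusted limma p 0.0261) and had -0.48 for B minus A (SE 0.19, adjusted p 0.145). MRPL44, which has a ribonuclease III-like fold, followed with -0.75 for C minus A without passing (adjusted limma p 0.0669), and MRPS6, a small subunit protein with a bacterial counterpart, had -0.37 for B minus A (adjusted limma p 0.180).

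The called members that rose were all large subunit genes. MRPL41, found in mitochondria but not in bacterial ribosomes, had levels of 5.72 in TAT B, 5.51 in gp120 B and 5.90 in control B and of 5.72 in TAT C and 5.79 in gp120 C, against 4.77, 4.76 and 5.03 in TAT A, gp120 A and control A. The 3 letter A arrays were the lowest. The difference was 0.86 (SE 0.15, adjusted limma p 0.0165) for B minus A and 0.996 (SE 0.17, adjusted limma p 0.0163) for C minus A. MRPL16, whose bacterial counterpart helps to place the transfer RNA at the peptidyl transferase centre, had 4.43, 4.63 and 4.87 in the letter B arrays of TAT, gp120 and control and 4.72 and 4.68 in TAT C and gp120 C, against 3.87, 3.90 and 3.88 in letter A. It rose by 0.76 in B (SE 0.16, adjusted limma p 0.0284) and by 0.87 in C (SE 0.18, adjusted limma p 0.0282).

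MRPL11, at the base of the stalk where translation factors bind, had 2.46, 2.99 and 2.31 in the letter B arrays of TAT, gp120 and control and 2.77 and 2.82 in TAT C and gp120 C, against 1.71, 1.74 and 1.75 in letter A. The 3 letter A arrays agreed closely and lay below the other 5. The rise was 0.85 in B (SE 0.18, adjusted limma p 0.0314) and 0.996 in C (SE 0.22, adjusted limma p 0.0299). MRPL54 and MRPL53, both found only in mitochondria, rose by 0.64 (adjusted limma p 0.0425) and 0.65 (0.0396) in B and by 0.89 (0.0261) and 0.77 (0.0376) in C. MRPL48, a protein of the central protuberance of the large subunit, rose in letter C by 0.88 (SE 0.19, adjusted limma p 0.0286), with 1.56 in TAT C and 2.11 in gp120 C, against 0.72, 1.07 and 1.51 in TAT A, gp120 A and control A. For B minus A it had 0.49 (adjusted p 0.0916).

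**Figure D4:**
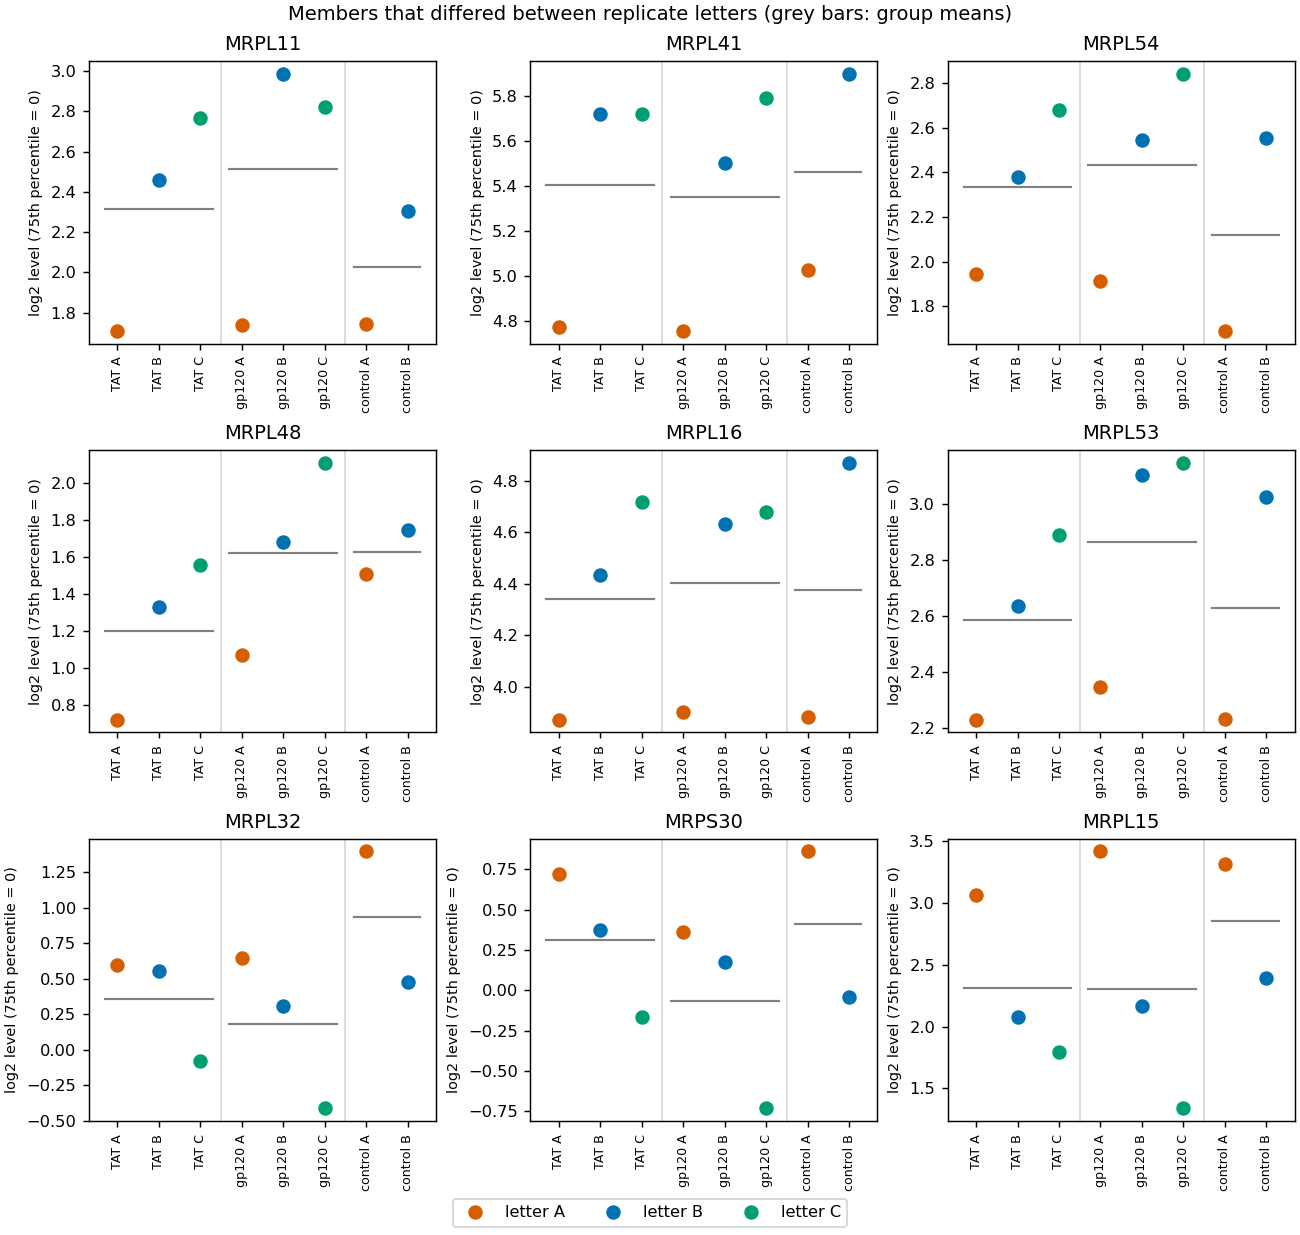
Levels of the 9 members that differed between replicate letters (y axis, log2, 75th percentile of the array at 0) on each array, with TAT left, gp120 in the middle, control right and grey bars for group means. The letter A points (orange) lie lowest in the 6 genes of the top rows within each group and highest in MRPL32, MRPS30 and MRPL15.

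The members' letter differences were read beside the slide layout and other genes. Letter A lies wholly in row 1, and letters B and C lie in row 2 except for control B. Control B minus control A, within row 1 and scan 2, was -0.92 for MRPL15, -0.90 for MRPS30, -0.92 for MRPL32, 0.87 for MRPL41, 0.99 for MRPL16, 0.56 for MRPL11, 0.79 for MRPL53, 0.86 for MRPL54 and 0.24 for MRPL48. The signs were those of the fit in all 9. Both control arrays are part of that fit, so their difference is not an independent check of it. With the row as a term, which leaves that 1 pair of arrays to carry the B minus A difference, 0 members were called in either comparison, 3 genes (B minus A) and 67 genes (C minus A) were called in all, and the values of MRPL15 were -0.92 and -1.48. The calls also depended on single arrays. For B minus A, 0 members were called without control A, control B, TAT B or gp120 A, 1 without TAT A or gp120 B, and 2 without TAT C or gp120 C. For C minus A, 0 were called without gp120 C, 1 without TAT A, TAT C or gp120 A, 5 without TAT B, 7 without gp120 B and 8 without either control. The fitted differences of the called members kept their signs throughout.

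Cell cycle genes moved with the letters too. Of 12 tested, 7 rose in letter B (7.75% of all genes did) and 8 in letter C (8.45% of all genes), with medians of 0.953 and 1.19, and their median deviations were -0.509, -0.667 and -0.905 in TAT A, gp120 A and control A, against 0.033 to 0.613 on the other 5 arrays. Of the marker lists, read beside the same shares and the 6.82% and 7.55% of all genes that fell, the 5 pericyte and smooth muscle markers had 3 that rose in letter B and 1 in letter C, and their median deviation was 0.233 to 0.792 in letter B and -0.012 to 0.190 in letter C, against -0.924 to -0.090 in letter A. Of the 7 Müller glia markers tested, 1 rose in letter B and 2 in letter C, and their median deviation was -0.142 to 0.204 and 0.022 to 0.161, against -0.287 to 0.210 in letter A. Of 3 endothelial markers, 1 rose in letter C (0.884 to 0.909, against -1.01 to 0.017 in letter A), with CDH5 not above background on any array. Of 2 neuronal markers, 1 fell in letters B and C (-0.505 to 0.504 and -1.39 to -1.26, against 0.775 to 1.47 in letter A), with ARR3 not above background on any array. The microglia, fibroblast and pigment epithelium lists had 0 called members. The part of cell cycle, cell type or slide row in the letter differences of the ribosomal genes was not tested.

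Large and small subunit genes were set side by side. For B minus A the medians were 0.301 for large subunit genes (36 above and 10 below 0) and 0.203 for small subunit genes (19 above and 10 below 0). For C minus A they were 0.273 (34 and 12) and 0.178 (20 and 9). All 6 genes called for B minus A carry large subunit names, and so do 8 of the 9 called for C minus A. The exception is MRPS30, whose protein sits in the large subunit, though the counts and medians here keep it in the small subunit by name. At an unadjusted limma p under 0.05 there were 16 of 46 large and 8 of 29 small subunit genes for B minus A (32.0% of all genes). For C minus A there were 18 and 6 (34.0%). Without overlap, 20 large and 13 small subunit genes lay higher in B than in A, and 2 and 3 lower (19.2% and 18.5% of all genes). The small subunit genes nearest to the threshold were MRPS34, with 0.67 for B minus A (adjusted limma p 0.0503) and 0.69 for C minus A (0.0660), and MRPS2, with 0.69 (0.0727) and 0.46 (0.236). Differences between the subunits were not tested, since members are not replicates.

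Values of other members with known roles follow. MRPS12, at the decoding centre, had 0.33 for B minus A and 0.29 for C minus A, and -0.05 with TAT and -0.18 with gp120. MRPS16, a small subunit protein with a bacterial counterpart, had 0.05 and -0.13. MRPS7, another, had 0.15 and 0.03, but its B minus A was 0.06 with TAT, 0.67 with gp120 and -0.28 in controls. MRPS5 had 0.40 and 0.58, and MRPL3, a large subunit protein with a bacterial counterpart, had 0.11 and 0.31. MRPS22 and MRPS27, found only in mitochondria, had -0.28 and -0.41, and -0.17 and 0.16. The paralogs MRPS18A, MRPS18B and MRPS18C went apart, with 0.58, -0.29 and -0.13 for B minus A and 0.33, -0.03 and -0.34 for C minus A. MRPL10, which anchors the stalk, had -0.21 and -0.19 at its brightest probe and 0.40 and 0.61 at its other probe. MRPL37 had 0.38 for B minus A and -0.51 for C minus A at its brightest probe. Its C minus B of -0.89 there was the lowest of all members (SE 0.24, adjusted limma p 0.170). The other probe of MRPL37 gave 0.14 for B minus A, 0.26 for C minus A and 0.12 for C minus B. None of these members passed the threshold.

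The 75 members did not move as 1 block. Over the 8 arrays, Pearson's r between 2 members had a median of 0.215 over 2775 pairs, with 0.233 within a subunit and 0.191 between subunits. These arrays share letters, slide rows and scans. The members most like the mean of the others were MRPL51 (r = 0.969), MRPS35 (0.923) and MRPS14 (0.903). MRPL51 had 2.51, 2.70 and 2.69 in TAT A, B and C, 2.37, 2.93 and 2.81 in gp120 A, B and C and 2.59 and 2.97 in controls A and B. The least like were MRPS18B (-0.704), MRPL15 (-0.699) and MRPL47 (-0.644).

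Several probes for 1 gene did not always tell the same story. The members had 143 probes of 60 bases, 30 members had 1 probe and 45 had several. Of the 41 members with several probes above the filter, the probes differed in sign in 18 for TAT minus control, 18 for gp120 minus control, 12 for TAT minus gp120, 15 for letter B minus letter A and 15 for letter C minus letter A. In both letter comparisons these included MRPL10, MRPL12, MRPL19, MRPL20, MRPL30, MRPL43, MRPL51, MRPL52, MRPL53, MRPS10, MRPS21, MRPS31 and MRPS35, so the values given here hold for the brightest probe. MRPL52 had the widest spread, with probes at -2.74 and 0.54 for C minus A.

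The probes of 3 genes are shown because they carry the letter results, with probes that agree for MRPL41 and MRPL15 and probes that disagree for MRPL53. The first 30 bases of each are given in lower case, 5′ to 3′, with positions of the whole probe in the build named in the file headers, HGSC Btau_3.1.
MRPL41 brightest probe, chr11:109897866-109897925, plus strand: agttccggggtggcgggtggagaggcggtt
MRPL41 second probe, chr11:109897732-109897791, plus strand: acggtacgggtttgagcccacgcaggaagg
MRPL15 brightest probe, chr14:21876392-21876451, plus strand: gctttgcaaagatctgttgtatctaaacca
MRPL15 second probe, chr14:21875538-21875597, plus strand: acatggcagacaagaagattctgaaaccta
MRPL53 brightest probe, chr11:10472495-10472554, plus strand: tgctatatagtcagggtacctactaccaat
MRPL53 second probe, chr11:10474482-10474541, plus strand: tgcttagtgcctgataagcagtgtgcaata
MRPL53 dim probe nearest the brightest, chr11:10472656-10472715, plus strand: ctacatgatctgtggttgtttgaatctgca
MRPL53 dimmest probe, chr11:10473766-10473825, plus strand: tatgtaactttggacacattacttagtctc
The exon or untranslated region that each probe lies in was not analysed here.

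The second probe of MRPL41 gave 1.12 for B minus A and 1.12 for C minus A, beside 0.86 and 0.996 at the brightest probe. The second probe of MRPL15 gave -0.50 and -0.98, the same direction as the brightest probe. MRPL11 and MRPL48 also had a second probe that moved as the first did, at 1.08 and 1.40 for MRPL11 and 0.76 and 1.11 for MRPL48. For MRPL53 the brightest probe, with 2.64, 3.103 and 3.03 in the letter B arrays of TAT, gp120 and control against 2.23, 2.35 and 2.23 in letter A, was the 1 probe of 4 that differed. The other 3 probes, named to the same transcript in the files, gave -0.17, -0.02 and -0.06 for B minus A and 0.02, -0.25 and -0.05 for C minus A. With the mean over its probes MRPL53 had 0.10 and 0.12 and did not pass. MRPL54's second probe gave 0.32 and -0.07, beside 0.64 and 0.89 at the brightest.

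Other genes of mitochondrial translation were counted in lists chosen by function. None of them had a gene past the threshold for TAT or gp120, where 0 of all genes passed. For letter B minus letter A (14.6% of all genes called) the translation factors had 0 of 13 called and a median of -0.036, the assembly factors 0 of 26 and 0.014, and the mitochondrial aminoacyl-tRNA synthetases 0 of 15 and 0.061. For letter C minus letter A (16.0% called) the medians were 0.178, 0.146 and 0.065. Of the 26 assembly factors 5 rose (8.45% of all genes did), MRM2 (1.15), RPUSD3 (0.86), NGRN (0.83), METTL17 (0.80) and YBEY (0.67). Of 8 proteins of the mitochondrial ribosome with other names on the array, 1 rose in each comparison (7.75% and 8.45% of all genes did). It was MRPL58, a peptidyl-tRNA hydrolase built into the large subunit, with 0.77 (adjusted limma p 0.0295) and 0.95 (0.0240). Of 10 regulators of mitochondrial gene expression, 1 rose in letter B (7.75% of all genes did) and 1 fell in letter C (7.55% did). The coactivator PPARGC1A rose by 1.67 (adjusted limma p 0.0108), and TFAM, which packs mitochondrial DNA, fell by 0.86 (0.0334). The medians of the regulators were -0.189 for B minus A and -0.397 for C minus A, with 7 of 10 below 0 in each. Their highest C minus A was 0.245, so the rise of PPARGC1A in letter B was not seen in letter C. The mitochondrially encoded subunits had 0 of 11 called in both, with medians of -0.076 and -0.140.

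The nuclear subunits of oxidative phosphorylation, most of which assemble with the products of this ribosome, lay on the same side as the ribosomal proteins. For B minus A they had a median of 0.189 (57 of 74 above 0, 3 called higher, beside 7.75% of all genes) and for C minus A 0.127 (51 of 74 above 0, 2 called higher, beside 8.45%). With TAT the median was -0.093 (57 of 74 below 0) and with gp120 -0.097 (52 of 74 below 0), with 0 called. The 82 cytosolic ribosomal proteins had -0.049 and -0.190 between the letters and 0.016 with TAT and 0.120 with gp120. On single arrays the median deviation of the mitochondrial ribosomal proteins was -0.118, 0.005 and 0.041 in TAT A, B and C, -0.194, 0.142 and 0.048 in gp120 A, B and C and -0.093 and 0.137 in controls A and B. The 3 lowest values were those of letter A. The cytosolic ribosomal proteins ran otherwise, with 0.022, 0.017 and -0.089 in TAT, -0.096, 0.312 and -0.019 in gp120 and 0.207 and -0.331 in controls.

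**Figure D5:**
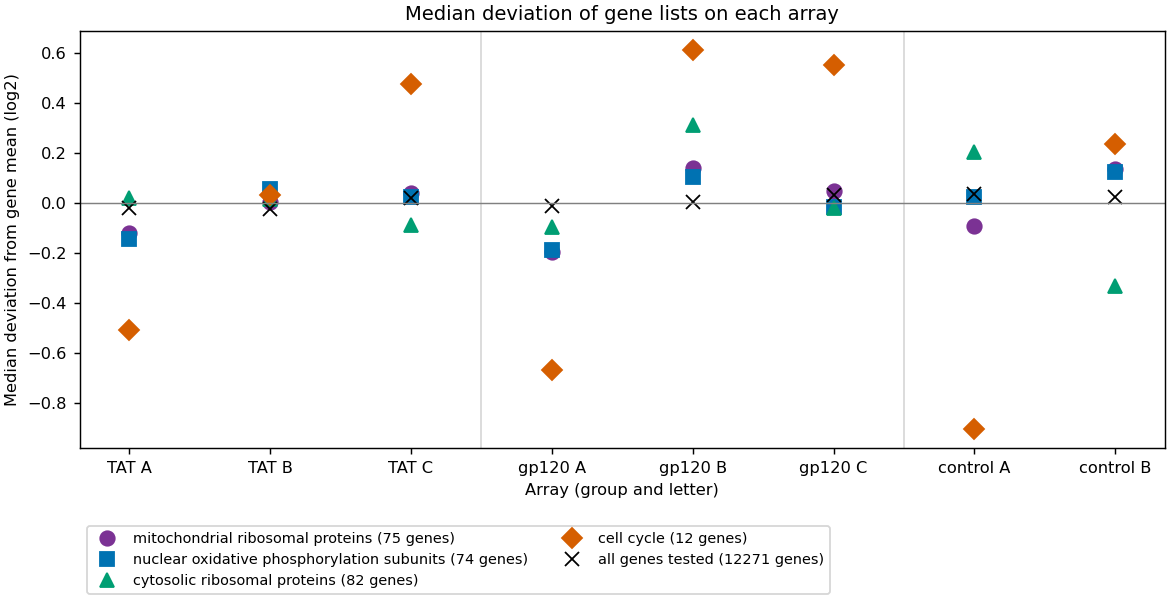
Median deviation from the gene's mean over 8 arrays (y axis, log2) of 4 gene lists and of all genes tested on each array (x axis), with TAT left, gp120 in the middle and control right. The mitochondrial ribosomal proteins lie below 0 on the 3 letter A arrays, and the cell cycle genes lie lowest there.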

How the data were processed

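RNA of 8 samples was hybridised to 8 one-colour Agilent bovine arrays (design 029411) on 1 slide. Spot intensities, background-subtracted but not scaled between arrays, were extracted by the authors with Agilent Feature Extraction 11.5.1.1 under protocol GE1_1105_Oct12, per the file headers. A deposited matrix of log2 values per name served as an alternative, and how it was made is not stated in its header or the labels. Once shifted array by array, it matched the scanner values to within 0.02 for 98.04% (gp120 B) and 97.8% (gp120 C) of names, and for 8.47% to 15.15% on the remaining 6 arrays. Its column medians were -3.26, -3.21 and -3.25 (TAT A, B, C), -3.25, -3.18 and -3.33 (gp120 A, B, C) and -3.20 and -3.30 (control A, B). Scale and direction follow from this match, no centring was found, and the processing of those 6 arrays is unknown.

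From the intensities, log2 signals minus each array's 75th percentile were computed, without control spots and outlier spots (4 to 37 per array, with 0 saturated). Between 55.5% and 64.6% of the spots of an array were well above background, and the number of arrays limits the precision. Of 51282 probes, 31196 passed the filter (well above background throughout at least 1 group), 31153 of these had no missing value, and 133 read members. The brightest probe per gene gave 12271 genes. Kept probes without a gene name (6484) were fitted but not counted. All 75 member symbols were found in the RefSeq bovine gene list, and 124 of 124 member probes whose accession it holds carry the same symbol there.

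Groups were compared with limma 3.58.1 (R 4.3.3, statmod 1.5.0, data.table (1.17.8)) in 1 fit of all 8 arrays without a block, two-sided, with Benjamini-Hochberg adjustment over genes and a threshold of 0.05. Letters were fitted with the group as a term. The script was tested on simulated data. Members and lists were chosen with earlier results of these data known. The text names the 4 highest and 4 lowest members of each comparison, the called members, members whose probes differ in sign and a set with known roles. Alternatives were another background correction, quantile normalization, no filter on dim probes, the mean over probes, the deposited table, slide row, scan or letter as a block, letters without group, and leaving out each array. Figures were drawn with Python 3.11.15 and matplotlib 3.10.9.

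The letters were checked for pairing through the correlation of deviations from the group means. TAT and gp120 arrays of the same letter gave 0.704, 0.477 and 0.74, so the letters pair these arrays. Unless another setting is named, the fitted differences, SEs and p-values of single members for the viral proteins do not use this pairing. They come from the fit without a block. With the controls, of which there are 2, so that their deviations mirror each other, the same letter gave 0.65 and 0.402 (TAT) and 0.626 and 0.372 (gp120), and different letters gave -0.65 to 0.415.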

Additional observations from a re-analysis of the deposited data

How the results depend on the processing

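For the viral proteins, the calls stayed at 0 genes under most settings. The deposited table called 4 genes for TAT minus control, 4 for gp120 minus control and 16 for TAT minus gp120. Leaving out single arrays gave 0 to 2, 0 to 2 and 0 genes, with the 2 called without control A. The fit with the letters as a replicate block, paired by letter, called 0 genes in all 3 comparisons, with member medians of -0.103, -0.069 and -0.012, and changed no call. The median over members moved to -0.196 for TAT minus control with the slide row as a block, and with the scan as a block to -0.229 for gp120 minus control and 0.184 for TAT minus gp120. The deposited table gave 0.012 for TAT minus control and 0.105 for TAT minus gp120. The scan term leaves 1 array, gp120 A, to carry the gp120 values. The slide row term takes the row difference from the TAT and gp120 arrays together, since both controls lie in row 1.

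Of 44 results on single members, 33 kept their sign in every setting and 11 did not. For TAT minus control the mean over probes gave -0.051 (MRPL30), -0.061 (MRPL43) and -0.079 (MRPL54), the deposited table -0.01 (MRPL54), the slide row -0.403 (MRPL11), 0.388 (MRPL15), -0.116 (MRPL30), -0.048 (MRPL43) and -0.24 (MRPL54), and leaving out control A -0.047 (MRPL43) and -0.217 (MRPL54). Over all left-out arrays MRPL43 ran from -0.047 to 0.355 and MRPL54 from -0.217 to 0.644. For gp120 minus control the slide row gave -0.201 (MRPL11), 0.383 (MRPL15) and -0.171 (MRPL9), and the scan -0.288, 0.563 and -0.282. For TAT minus gp120 the scan gave 0.132 (MRPL48), 0.328 (MRPL9) and -0.053 (MRPS30). Apart from the mean over probes, which reads other probes, the cause was not tested.

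Between letters, the called members and the 4 highest and 4 lowest of each comparison kept their signs in every setting, and members outside these were not followed across settings. Counts did not hold. Genes called for B minus A numbered 933 without the filter on dim probes, 843 in the deposited table, 3 with the slide row, 754 with the scan, and 632 to 994 without single arrays. For C minus A they numbered 883, 915, 67, 929, and 148 to 1796. Normexp background correction called 2309 and 2231, and letters without the group term 1966 and 2706. Members called numbered 19 and 16 with normexp, 0 and 1 without the filter, 3 and 7 in the deposited table, and 12 and 13 without the group term, beside the 6 and 9 reported. The member median for C minus A was 0.147 in the deposited table. Leaving out arrays means fewer samples, and otherwise the cause was not tested. Letter C rests on 2 arrays and letters A and B on 3 each, and signal over background was no limit for any member.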
